A study of Mus musculus with 10 samples.

Results

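H3K4me2 was compared between lymphocytes of the bronchoalveolar lavage and lymphocytes of the mediastinal lymph node, within each of 3 sorted cell types. The comparison took 6 of the 10 samples of the series, 3 lavage libraries against 3 lymph node libraries, with 1 library per site for T helper 2 (Th2) cells, for ILC2s (innate lymphoid cells of group 2) and for cells labelled naive T. The mice, Gata3-YFP/YFP, had airway inflammation and carried a yellow fluorescent protein that reports the Gata3 gene, and the cells were sorted with antibodies and YFP. Every group carried the same reporter alleles and the same inflammation, so no library came from an uninflamed mouse. The gate behind the name naive T, the age and number of the mice, the inflammatory agent, and whether 1 mouse gave both sites of a type are not given in the sources used here. With 1 library per site and type, the p-values set the site difference against the disagreement of the site ratio among the 3 cell types. Differences between types, between mice and of technique cannot be told apart in that disagreement.

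Dimethylation of lysine 4 of histone H3 lies at promoters and enhancers that are active or poised, and its width along a gene varies with cell state. Lavage recovers lymphocytes that have entered the airway lumen, whereas the mediastinal node is the lymph node that drains the lung and primes the T cell response. Th2 cells and ILC2s both use the transcription factor Gata3 and make type 2 cytokines, but only the T cells carry a rearranged antigen receptor. Interferon, a signal that tissues send during infection and inflammation, acts through a complex that contains STAT2 and IRF9 on a DNA element called the interferon-stimulated response element (ISRE).

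Peaks lying within 500 bp of each other were merged into 27854 regions, and a region entered the ratio of a cell type when both of its libraries had a peak there. This gave 14678 regions for naive T cells, 13127 for Th2 cells and 19422 for ILC2s, and 11669 regions were called in all 6 libraries. The value of a library in a region was its summed normalized tag count, in tags per 10000000 sequenced tags. The ratio was log2 of lavage over lymph node, centred per cell type on its median over those 11669 regions. A positive value means a ratio of lavage to lymph node above the median ratio of that type, not always more tags in the lavage. In naive T cells that median was -0.45, so a region there can be positive with fewer tags in the lavage. Counts of regions higher or lower in the lavage refer to the centred ratio unless stated otherwise.

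No region passed limma with Benjamini-Hochberg adjustment at 0.05, with 0 of 11669 regions (0%) higher and 0 (0%) lower in the lavage, and the smallest adjusted p was 0.875. At an unadjusted limma p under 0.05 there were 548 regions (4.7%), 340 of them (2.91%) higher and 208 (1.78%) lower. The loci below are therefore described by their values and by agreement in sign, and none of them is a call. In simulated data of this design with 11669 regions, 22 of 100 regions changed by 1 log2 unit were recovered, and 64 of 100 changed by 2 log2 units. The simulation gave the 3 types the same spread within a region. The real ratios had an SD over regions of 0.72 in naive T cells, 0.42 in Th2 cells and 0.34 in ILC2s, so these shares may not hold for the data.

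Among regions with the same sign in all 3 types, the promoter of Rsad2, a gene that interferon induces, had the largest centred ratio in its least different type. In 5 of 11669 regions (0.0428%) the lavage stood 1 log2 unit or more higher in every type, near Rsad2, Cubn, N4bp1, Tbx21 and Ifitm3. Without centring 3 regions did, and the smallest-type ratios were 1.23 at Cubn, 1.16 at N4bp1 and 1.15 at Tbx21, with Rsad2 at 0.95 and Ifitm3 at 0.99 under the limit. No region, 0 of 11669 (0%), stood that far higher in the lymph node. At 0.5 log2 units or more there were 40 regions (0.343%) on the lavage side and 17 (0.146%) on the lymph node side. The promoters of 4 of the 5 leading regions and of 3 interferon pathway genes with the same sign are printed because they do or do not hold the ISRE letters, GAAA repeated after a gap of 2 bases, on either strand; matches are in capitals. Each runs 5′ to 3′ on the gene's strand over 250 bases before and 50 after the start site, from RefSeq in build GRCm38.p6. The positions are chr12:26456403-26456702 on the minus strand for Rsad2, chr7:141010695-141010994 minus for Ifitm3, chr11:97115282-97115581 minus for Tbx21, chr8:86885209-86885508 minus for N4bp1, chr10:128270248-128270547 plus for Stat2, chr2:62646206-62646505 minus for Ifih1 and chr5:114922990-114923289 plus for Oasl1.
Rsad2 promoter: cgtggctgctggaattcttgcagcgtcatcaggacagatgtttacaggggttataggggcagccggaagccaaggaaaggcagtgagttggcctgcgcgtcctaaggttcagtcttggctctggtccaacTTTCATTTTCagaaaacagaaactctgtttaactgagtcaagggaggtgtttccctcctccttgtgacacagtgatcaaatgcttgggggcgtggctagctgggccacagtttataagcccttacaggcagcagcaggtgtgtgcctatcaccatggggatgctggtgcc
Ifitm3 promoter: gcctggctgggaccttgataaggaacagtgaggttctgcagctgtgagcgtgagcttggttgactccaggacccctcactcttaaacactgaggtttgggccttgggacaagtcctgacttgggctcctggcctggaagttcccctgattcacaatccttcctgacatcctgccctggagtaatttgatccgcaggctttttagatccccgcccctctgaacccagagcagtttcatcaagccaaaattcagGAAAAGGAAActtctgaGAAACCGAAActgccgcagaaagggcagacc
Tbx21 promoter: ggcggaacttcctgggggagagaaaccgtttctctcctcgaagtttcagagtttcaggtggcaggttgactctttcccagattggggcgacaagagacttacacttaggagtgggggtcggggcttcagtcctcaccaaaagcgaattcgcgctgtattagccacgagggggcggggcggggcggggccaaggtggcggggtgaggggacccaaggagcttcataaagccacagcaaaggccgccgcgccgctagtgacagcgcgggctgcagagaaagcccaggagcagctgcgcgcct
N4bp1 promoter: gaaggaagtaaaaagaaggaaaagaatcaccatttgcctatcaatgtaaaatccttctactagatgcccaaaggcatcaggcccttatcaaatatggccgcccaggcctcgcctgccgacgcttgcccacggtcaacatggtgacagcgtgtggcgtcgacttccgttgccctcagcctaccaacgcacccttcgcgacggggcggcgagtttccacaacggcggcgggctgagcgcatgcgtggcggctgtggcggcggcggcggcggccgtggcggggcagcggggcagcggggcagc
Stat2 promoter: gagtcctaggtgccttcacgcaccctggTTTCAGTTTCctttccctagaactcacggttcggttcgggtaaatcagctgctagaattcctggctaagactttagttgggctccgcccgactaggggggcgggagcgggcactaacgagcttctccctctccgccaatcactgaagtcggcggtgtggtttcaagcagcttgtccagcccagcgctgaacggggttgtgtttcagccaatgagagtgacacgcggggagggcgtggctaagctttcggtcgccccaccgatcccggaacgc
Ifih1 promoter: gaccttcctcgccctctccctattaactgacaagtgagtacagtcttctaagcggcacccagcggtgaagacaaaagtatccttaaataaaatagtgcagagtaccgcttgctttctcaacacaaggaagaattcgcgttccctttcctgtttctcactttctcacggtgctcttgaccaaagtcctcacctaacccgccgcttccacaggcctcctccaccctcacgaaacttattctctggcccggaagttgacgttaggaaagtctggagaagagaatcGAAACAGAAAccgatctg
Oasl1 promoter: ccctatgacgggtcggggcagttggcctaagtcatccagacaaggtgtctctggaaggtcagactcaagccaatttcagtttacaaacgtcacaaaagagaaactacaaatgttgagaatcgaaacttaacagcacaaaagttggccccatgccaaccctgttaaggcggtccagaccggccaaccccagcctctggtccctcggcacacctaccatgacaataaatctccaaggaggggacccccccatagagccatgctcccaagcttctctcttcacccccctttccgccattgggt

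The Rsad2 promoter held 1 match whose first base lay 120 bases before the start site, and the Ifitm3 promoter held 2, starting 2 and 19 bases after it. The Stat2 match began 222 bases before the start and the Ifih1 match 32 bases after it, while the Tbx21, N4bp1 and Oasl1 windows held none. Of the 40 regions on the lavage side, 18 contained a promoter window, and 4 of these 18 (22.2%) held an ISRE match, at Rsad2, Ifitm3, Trim30a and Ddx60. The share was 4.0% (298 of 7399) over all tested regions with a promoter and 3.4% (1131 of 32851) over all promoters in the table. The AP-1 letters TGANTCA also occurred in 4 of the 18 (22.2%), at Rsad2, Ifitm3, Trim30a and Lmna, against 5.8% of tested regions with a promoter. The letters TTCNNNGAA, a STAT dimer site called GAS, occurred in 1 of the 18 (5.6%), at Ifitm3, where they share bases with the second ISRE match, against 8.7%. None of the 3 motifs was found in the 6 promoter-holding regions of the lymph node side. A match is a stretch of letters, not a measured binding site.

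The 2 libraries labelled naive T stood further apart than those of the other types, before any locus is considered. The median uncentred log2 ratio over regions called in both sites was -0.50 for naive T cells, -0.04 for Th2 cells and -0.04 for ILC2s, and its SD was 0.72, 0.42 and 0.34. Counting error was smaller than these spreads, with a median standard error per region of 0.09, 0.15 and 0.11 log2 units. In naive T cells, 978 regions were 1 log2 unit or more higher in the lavage after centring and 1022 lower. In Th2 cells the counts were 305 and 209, and in ILC2s 249 and 140. The naive T node library also had 6541 regions called that its lavage partner lacked, against 1015 in Th2 cells and 1368 in ILC2s. The naive T pair was also unequal in the share of tags in peaks, with 37.3% in the lavage and 53.7% in the node. That share was 28.7% and 29.3% in Th2 cells and 43.2% and 45.0% in ILC2s. The part of this inequality in the naive T ratios was not tested. Across the 11669 shared regions, the ratios of Th2 cells and ILC2s had a Pearson correlation of 0.26, those of naive T and Th2 cells 0.11, and those of naive T cells and ILC2s -0.01, where each point shares its 4 libraries and their depth with every other point.

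Depth, marker genes and peak width frame these values. The 6 libraries held 11870820 to 24945548 tags and 14723 to 21985 peaks, with a share of tags in peaks of 28.7% to 53.7%. The defining T cell genes had regions for 8 of 8 genes in each T cell library, with summed tags of 12873.8 to 19212.2. The ILC2 libraries had 7 and 6 of 8, with summed tags of 1543.0 and 1492.2. The Th2 and ILC2 markers were called for 5 or 6 of 6 genes in every library, that labelled naive T included. Their summed tags in lavage and node were 5601.7 and 4767.8 in naive T cells, 8674.9 and 7479.6 in Th2 cells, and 22145.8 and 23142.0 in ILC2s. In the naive T node library Il13 was not called, and Il1rl1 counted only through the region it shares with Il18r1. Tag ratios followed the ratio of covered length, with Pearson correlations across regions of 0.90 in naive T cells, 0.92 in Th2 cells and 0.90 in ILC2s, since by construction a wider or stitched peak collects more tags. Ratios per kb of covered sequence were centred in the same way as the tag ratios, and their SD was 0.33, 0.17 and 0.15. Values given for a gene are those of the single region described, and other regions near the same gene can differ.

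Rsad2 encodes viperin, an antiviral enzyme that interferon induces, and its region on chromosome 12 from 26452835 to 26457562 overlapped the gene and held its start site. It held 342.3 tags in lavage and 177.1 in node naive T cells, 204.5 and 52.2 in Th2 cells, and 188.8 and 63.1 in ILC2s. The lavage value was above the node value of its own type every time, and across types the sites did not overlap, the lowest lavage value being 188.8 and the highest node value 177.1. The share of all regions whose sites separate this way was not counted, and the region was ranked first on these same values. An exact test of 3 libraries against 3 could not go below p = 0.1, so the separation is description only. The centred log2 ratios were 1.40 (95% interval from counting error alone 1.24 to 1.57), 2.02 (1.63 to 2.41) and 1.64 (1.37 to 1.91). The limma estimate was 1.69 (SE 0.17, n = 3 pairs, unadjusted p = 0.000179, Benjamini-Hochberg adjusted p = 0.875). Per kb the centred ratios were 0.48, 0.35 and 0.33. In naive T cells the uncentred tag ratio of 0.95 was no larger than the covered-length ratio of 0.99, so the per kb value there is above 0 only after centring. Spleen and thymus CD4+ cells held 169.2 and 114.5 tags there.

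Ifitm3 encodes a membrane protein that blocks virus entry and is likewise interferon-inducible. Its region (chromosome 7, 141009030 to 141011381) held 100.3 and 39.8 tags in naive T cells, 138.4 and 69.9 in Th2 cells and 115.1 and 42.5 in ILC2s. The 3 lavage values all lay above the 3 node values, a separation not counted over all regions, although 2 of the node values lay near the calling minimum of about 40 tags. The centred ratios were 1.79, 1.03 and 1.495, and per kb they were 0.96, 0.38 and 0.52. Thymus CD4+ cells held 119.8 tags, and no peak was called in spleen CD4+ cells.

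Tbx21 encodes T-bet, the transcription factor that directs the Th1 and natural killer programmes and opposes Gata3. Its region (chromosome 11, 97107933 to 97117003) held 662.9 and 227.1 tags in naive T cells, 416.4 and 41.3 in Th2 cells, and 86.6 and 39.0 in ILC2s. The lavage Th2 library lay between the 2 libraries labelled naive T, while the node Th2 library and both ILC2 libraries were low, and the sites overlapped across types because the node naive T value exceeded the lavage ILC2 value. The ratios were 2.00, 3.38 and 1.21, with a limma estimate of 2.20 (SE 0.42). Per kb the ratios came to 0.23, 0.36 and 0.14. Across regions tag ratios followed covered length, so dividing by length cannot separate width from amount of mark. The part of width in the Tbx21 ratios was not tested. The node values of 41.3 in Th2 cells and 39.0 in ILC2s lay near the calling minimum, so the size of those ratios is uncertain.

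N4bp1 encodes a regulator of innate immune signalling, and its 15781 bp region around the promoter (chromosome 8, 86869492 to 86885273) held 1003.9 and 298.6 tags, 549.8 and 170.2, and 287.5 and 128.8 in the same order. The lavage value was higher within each type and the sites overlapped across types, since the ILC2 lavage value was below the naive T node value. Per kb the ratios were 0.10, -0.11 and 0.21, so the Th2 value changed sign. Cubn encodes cubilin, an endocytic receptor, and the region inside it (chromosome 2, 13406577 to 13414999) lay 76877 bp from the nearest listed start site. It held 535.4 and 156.4, 438.2 and 187.0, and 428.1 and 147.1 tags. The 3 lavage values were all above the 3 node values, again a separation not counted over all regions. With peaks of at least 80 tags, Cubn was the single region that passed limma (log2 2.17, Benjamini-Hochberg adjusted p = 0.0389), while over the other settings its adjusted p ran from 0.195 to 1.

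**Figure D1:**
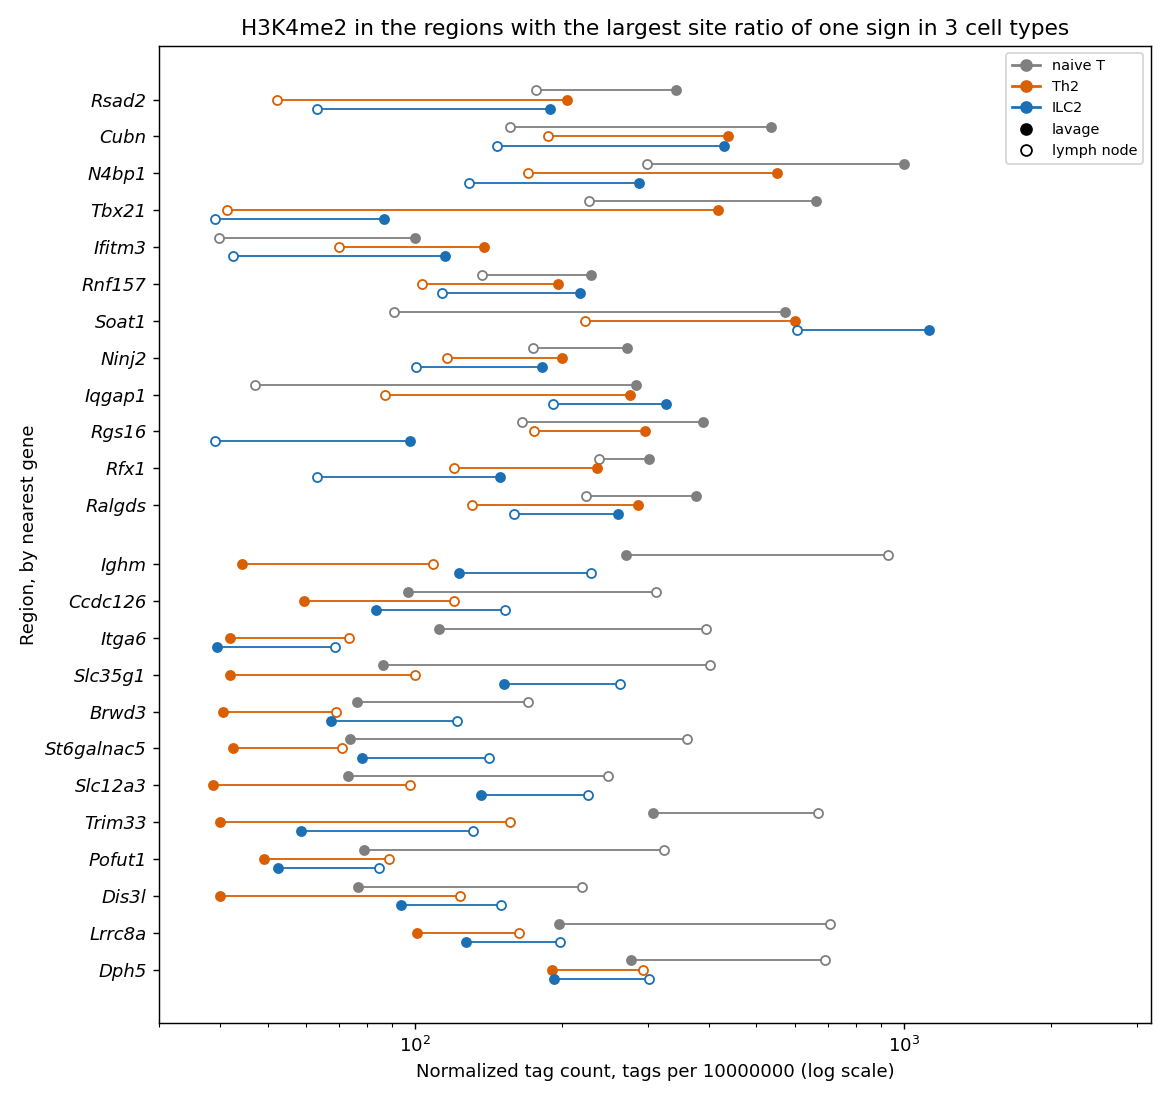
Normalized tag count (x axis, tags per 10000000, log scale) of the 12 regions per direction with the largest smallest-type ratio, named by nearest gene on the y axis; filled points are lavage, open points lymph node, each a single library, and lines join the sites of a cell type. Rsad2, with 342.3 against 177.1 tags in naive T cells, leads the lavage side, and Ighm, with 270.0 against 929.9, leads the lymph node side.

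The next regions on the lavage side lay at genes of varied roles. Rnf157, a ubiquitin ligase gene, had ratios of 1.20, 0.97 and 0.996, just under the limit of 1 that Ifitm3 passed at 1.03. Soat1, which encodes the enzyme that esterifies cholesterol, held 570.9 and 90.6 tags in naive T cells, 599.7 and 223.2 in Th2 cells and 1125.3 and 605.8 in ILC2s, with ratios of 3.11, 1.47 and 0.95. Iqgap1, an actin scaffold gene, followed a similar order with ratios of 3.04, 1.71 and 0.83. Both were largest in naive T cells and smallest in ILC2s. Rgs16, a brake on G protein signalling, and Rfx1, a transcription factor gene, instead had larger ratios in ILC2s, 1.38 and 1.30, than in Th2 cells, 0.80 and 1.02. Ninj2, an adhesion protein gene, and Ralgds, an activator of Ral GTPases, closed the 12, and the mean ratio of Ninj2 per kb was -0.05.

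Further interferon-inducible genes stood among the 40 regions without being on the list used below, and were picked out after their values were seen. Ddx60, a helicase of antiviral sensing, held 472.7 and 394.5 tags in naive T cells, 302.3 and 136.5 in Th2 cells and 289.4 and 161.6 in ILC2s. Trim30a, an antiviral TRIM protein gene, had ratios of 0.74, 1.16 and 0.78, and Oasl2, of the oligoadenylate synthetase family, had 0.59, 0.66 and 1.16. The region nearest Gbp8, a guanylate-binding protein gene, had 0.68, 0.95 and 0.52. In each of these the tag count was higher in the lavage within all 3 types, before centring as well as after it. Per kb, Trim30a had -0.07, 0.22 and -0.03, so its sign held only in Th2 cells. Ddx60, Oasl2 and Gbp8 stayed above 0 per kb in all 3 types. In naive T cells, though, their uncentred tag ratios of 0.26, 0.14 and 0.22 were below their covered-length ratios of 0.56, 0.52 and 0.64. Their per kb values there are thus above 0 only after centring. Outside this family, Lmna, the gene of nuclear lamin A, had 1.81, 1.67 and 0.60, Antxr2, an extracellular matrix receptor gene, had 1.60, 1.16 and 0.60, and Cyth4, a GTPase activator gene of blood cells, had 1.31, 1.94 and 0.62.

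On the lymph node side, Ighm, the gene of the immunoglobulin M heavy chain, held 270.0 and 929.9 tags in lavage and node naive T cells, 44.3 and 108.7 in Th2 cells, and 123.1 and 229.5 in ILC2s. The node value was higher within each type, and thymus CD4+ cells had more than any of the 6, with 1124.2. The centred ratios were -1.33, -1.25 and -0.84 (chromosome 12, 113421493 to 113428616). Per kb they were -0.84, 0.22 and 0.15, so the sign held only in naive T cells. Of the 8 B cell markers, 2 were called in each T cell library and 4 in each ILC2 library, and Ms4a1 and Cd22 had no region in any of the 6. The summed tags of the B cell list were 852.6 in lavage and 1656.4 in node naive T cells, 562.2 and 569.5 in Th2 cells, and 1045.9 and 994.7 in ILC2s. A single region counted for Cd79a but nearest Arhgef1 made up 764.4 and 1391.9 of the naive T sums. The list's part in the Ighm value was not tested.

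Itga6, which encodes a laminin-binding integrin subunit, had a region 4404 bp outside the gene (chromosome 2, 71862831 to 71868729) with 112.0 and 394.1 tags, 41.8 and 73.3, and 39.3 and 68.8. The node value was higher within each type, with ratios of -1.36, -0.76 and -0.75. The Th2 and ILC2 lavage values there, 41.8 and 39.3, lay near the calling minimum of about 40 tags. So did the Th2 lavage values at Ighm, Slc35g1, Brwd3, St6galnac5, Slc12a3, Trim33, Dis3l and Nipsnap1. These ran from 38.6 at Slc12a3 to 44.3 at Ighm and Nipsnap1, so the size of those Th2 ratios is uncertain. Sgk1, a kinase gene that glucocorticoids and salt induce, was the member of the 17 nearest the limit, and its ratio was largest in ILC2s, at -0.51, -0.67 and -1.62. Arap1, the first region outside, had a smallest-type ratio of -0.49. Trim33, a TGF-beta pathway gene 24128 bp from its region, had its largest ratio in Th2 cells, at -0.67, -1.93 and -1.11. The other members included the regions of Pofut1, a fucosyltransferase of the Notch pathway, with -1.59, -0.80 and -0.63, and Lrrc8a, a volume-regulated anion channel gene, with -1.39, -0.65 and -0.58. Per kb, the mean ratios of Slc35g1, Brwd3 and Dis3l turned to 0.08, 0.02 and 0.02.

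Where the 2 sets lay and how they were called elsewhere is given as description, beside all tested regions. A start site lay in 45.0% of the 40 and 35.3% of the 17, against 63.4% of the 11669. Spleen CD4+ cells had a peak in 36 of the 40 and 17 of the 17, against 99.4% of all, and thymus CD4+ cells in 26 and 15, against 95%. Covered length was longer in the lavage in all 3 types in 39 of the 40, and shorter in 17 of the 17, against 1693 and 1355 of the 11669. Per kb and after centring, 28 of the 40 were higher in all 3 types and 3 of the 17 were lower, against 1494 and 1444 of the 11669. These 2 counts were not compared by a test.

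**Figure D2:**
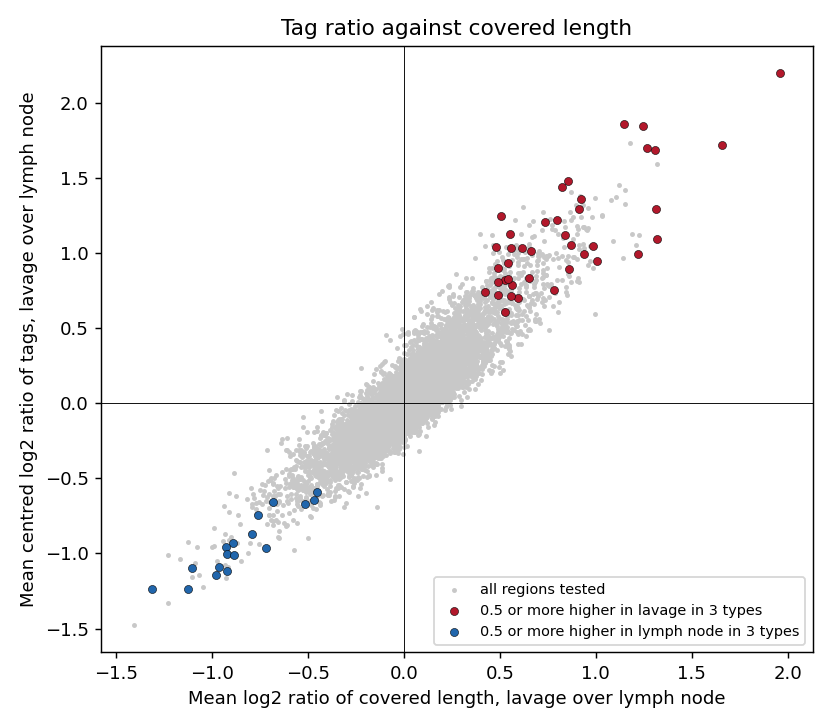
Mean over the 3 cell types of the centred log2 tag ratio (y axis) against the mean log2 ratio of covered length (x axis), lavage over lymph node, with 1 point per tested region. The 40 red and 17 blue regions, 0.5 log2 units or more to the lavage or node side in every type, lie along the same diagonal as the other regions.

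Among the functional gene lists, the interferon response genes had the highest median in Th2 cells and in ILC2s. Of its 26 genes, 24 had a region, and 25 regions were called in all 6 libraries. Its median centred ratio was 0.28 in Th2 cells and 0.29 in ILC2s but -0.04 in naive T cells. In both Th2 cells and ILC2s, 18 of the 25 (72.0%) were higher in the lavage and 3 (12%) were lower in both, against 29.9% each way over all 11669 regions. In all 3 types 10 (40.0%) were higher and 3 (12%) lower, against 14.3% and 13.7% of all regions. At an unadjusted limma p under 0.05, 8 were higher and 0 lower, against 2.91% and 1.78% of all regions, and 0 passed adjustment. The list's median of the mean ratio over types, 0.18, was 0.06 per kb and -0.01 without centring, which removes a median naive T ratio of -0.45. Without the naive T pair, whose list median was the lowest, only the Th2 and ILC2 pairs remained and the median was 0.29. Values of this list without the Th2 or the ILC2 pair are not given here. In the fit without the naive T pair, 13 of the 25 (52.0%) were higher at an unadjusted limma p under 0.05 and 0 lower. The shares of all 12527 regions were 5.0% and 4.3%. Leaving out the pair with the lowest list median favours the list, so its share in that fit is description and no separate support. Over all regions that fit had 1166 (9.31%) at an unadjusted limma p under 0.05 and 0 calls after adjustment.

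Ifih1, which encodes the RNA sensor MDA5, held 638.6 and 460.3 tags in naive T cells, 409.6 and 304.9 in Th2 cells and 296.6 and 180.0 in ILC2s, and the lavage was higher within each type. Its ratios were 0.93, 0.47 and 0.78, and limma gave an unadjusted p of 0.00285 (Benjamini-Hochberg adjusted p = 0.875). Stat2, the interferon signal transducer, held 315.5 and 213.7, 225.7 and 176.1, and 218.9 and 149.4 tags, again higher in the lavage within each type. Oasl1 held 324.7 and 341.7, 165.2 and 82.6, and 236.1 and 158.6, so the naive T value was higher in the lavage only after centring. Irf9, the DNA-binding partner of STAT2, had ratios of 0.19, 0.91 and 0.58, and Bst2, which encodes tetherin, had 0.18, 0.89 and 0.74. The sign in these 2 genes was set by centring in naive T cells, where the lavage held 538.3 tags against 644.3 at Irf9 and 322.7 against 389.2 at Bst2.

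Not every gene of the list leaned that way. Usp18, a brake on interferon receptor signalling, held 499.3 and 186.2 tags in Th2 cells and 760.1 and 575.1 in ILC2s, but 788.7 and 1205.0 in naive T cells. Socs3, a cytokine signalling inhibitor gene, had its largest ratio in ILC2s, at 1.02, against 0.28 in Th2 cells. Of 3 regions near Irf2, which encodes a repressor among the interferon regulatory factors, 2 were lower in the lavage in all 3 types, with -0.21, -0.33 and -0.08 at the first. Per kb, 5 of the 25 regions were higher in all 3 types, against 12.8% of all regions. Before centring, again 5 of the 25 were, against 4.7%.

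**Figure D3:**
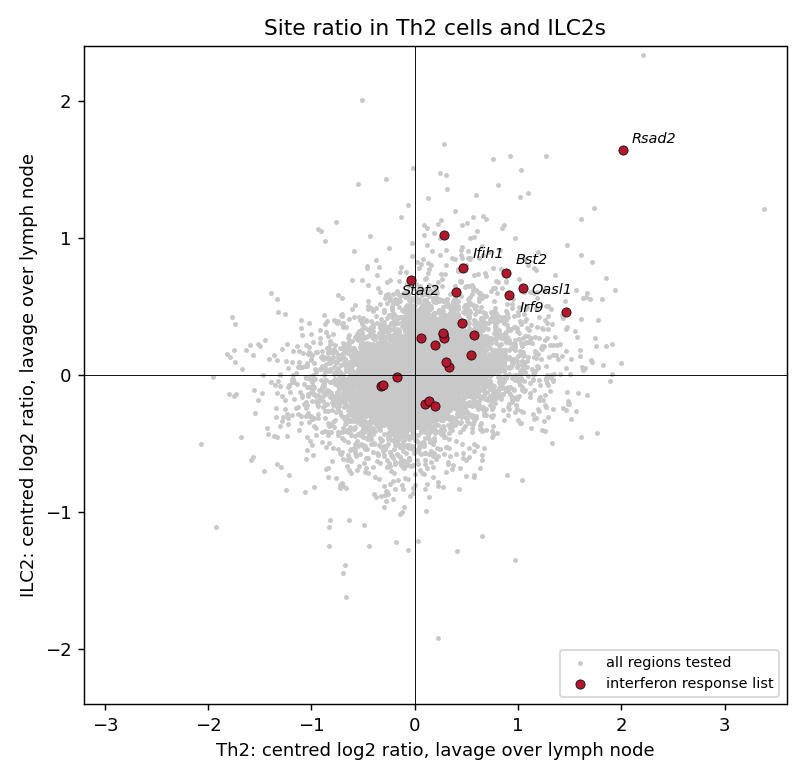
Centred log2 ratio of lavage over lymph node in Th2 cells (x axis) and ILC2s (y axis), 1 point per region called in all 6 libraries, with the 25 regions of the interferon response list in red and 6 of those described in the text named. Of the red points, 18 are higher in both, with Rsad2 at 2.02 and 1.64, and 3 are lower in both.

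Macrophages and dendritic cells carry many of the same antiviral genes and are common in lavage. Of 11 marker genes of these cells, 3 to 6 were called per library, with summed tags of 1279.7 to 2280.6 in the lavage and 1268.5 to 3105.5 in the node libraries. Csf1r, Cd68, Marco and Chil3, which define macrophages, had no region in any of the 6 libraries. A region at Spi1, the myeloid transcription factor gene, had 45.1 lavage and 300.6 node tags in naive T cells. In ILC2s it had 66.1 and 119.6, and neither Th2 library called it, and the tallest Flt3 region was called only in the naive T node library, at 265.7. The 8 tested regions, near Cebpb, Fcgr1 and Zbtb46, had median ratios of 0.46, 0.37 and 0.31, above those of the interferon list in each type. At an unadjusted limma p under 0.05, 3 were higher and 0 lower, against 2.91% and 1.78% of all regions. In all 3 types 5 (62.5%) were higher, against 14.3%. One Fcgr1 region, at 124.1 and 84.1, 62.3 and 41.3, and 139.1 and 102.5 tags, was the region just under the 0.5 limit. The part of such cells in the interferon values was not tested, and in bulk libraries more cells of a type cannot be told apart from more mark per cell.

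Genes of tissue residency and airway migration, and of activation and checkpoint receptors, had high medians that came from the naive T pair. The residency list had median ratios of 1.21, 0.10 and 0.06 over 39 regions, of which 17 (43.6%) were higher in all 3 types and 1 (2.6%) lower. The checkpoint list had 1.19, 0.10 and 0.09 over 43 regions, with 17 (39.5%) higher and 3 (7.0%) lower. Over all regions these shares were 14.3% and 13.7%. At an unadjusted limma p under 0.05 they held 2 and 7 higher regions and 0 lower, against 2.91% and 1.78% of all regions. After adjustment 0 passed. Over all types the medians were 0.41 and 0.43, and without the naive T pair they were 0.12 and 0.01.

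Ccr2, a receptor that draws cells to inflamed tissue, held 1220.8 and 88.2 tags in naive T cells, 1203.1 and 1107.8 in Th2 cells, and 1328.9 and 1655.3 in ILC2s. The naive T node library alone was low, and the lavage library labelled naive T was level with the effector cells. Rgs1, which limits exit from tissue, showed the same arrangement with 998.9 and 97.5, 1055.4 and 1096.0, and 1140.9 and 1250.0 tags. Ctla4, an inhibitory receptor of activated T cells, held 3728.1 tags in the lavage and 619.1 in the node library labelled naive T, and 2949.2 and 3283.7 in the Th2 libraries. Its Th2 ratio, -0.11, was therefore of the opposite sign to its naive T ratio of 3.04. At these 3 regions the Th2 and ILC2 ratios lay between -0.26 and 0.17; the Rgs1 region lay 49453 bp from the gene, and another near Rgs1 had 2.76, 0.75 and -0.41.

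Among the regions of these lists that were higher in the lavage in all 3 types was the tallest near Cd44, the hyaluronan receptor of activated cells. It held 700.5 and 396.1, 662.0 and 330.2, and 1324.5 and 1249.2 tags, with ratios of 1.28, 1.05 and 0.14. Another region near Cd44 was the single residency region lower in all 3 types, with -1.23, -0.01 and -0.82. Pdcd1, which encodes the inhibitory receptor PD-1, had a tall region at 1289.8 and 444.9, 1332.1 and 927.5, and 1134.1 and 968.0 tags, with ratios of 1.99, 0.57 and 0.29. A region near Icos, a costimulatory receptor gene, had 1.49, 0.49 and 0.51. Lag3, another inhibitory receptor gene, had 1.27 in naive T cells and 0.87 in ILC2s but -0.03 in Th2 cells.

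Lymph node homing and resting T cell genes had median ratios of -0.30, 0.03 and 0.03 over 56 regions. In all 3 types 9 (16.1%) were higher and 9 (16.1%) lower, near the 14.3% and 13.7% of all regions. At an unadjusted limma p under 0.05, 2 were higher and 5 lower, against 2.91% and 1.78% of all regions, and 0 passed adjustment. Ccr7, the chemokine receptor for entry into nodes, held 399.6 and 2260.0 tags in naive T cells, 257.4 and 447.3 in Th2 cells, and 748.4 and 852.4 in ILC2s. It was lower in the lavage in each type, by most in naive T cells and by least in ILC2s, with ratios of -2.05, -0.75 and -0.13. Tcf7, the transcription factor gene of resting T cells, held 945.0 and 3964.3 tags in naive T cells, 134.0 and 182.8 in Th2 cells, and 259.0 and 427.9 in ILC2s, with ratios of -1.61, -0.40 and -0.67. The lavage library named naive T was thus below its node partner at both genes but above every Th2 and ILC2 library at Tcf7, and at the Ccr2, Rgs1 and Ctla4 regions it was far above its node partner.

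**Figure D4:**
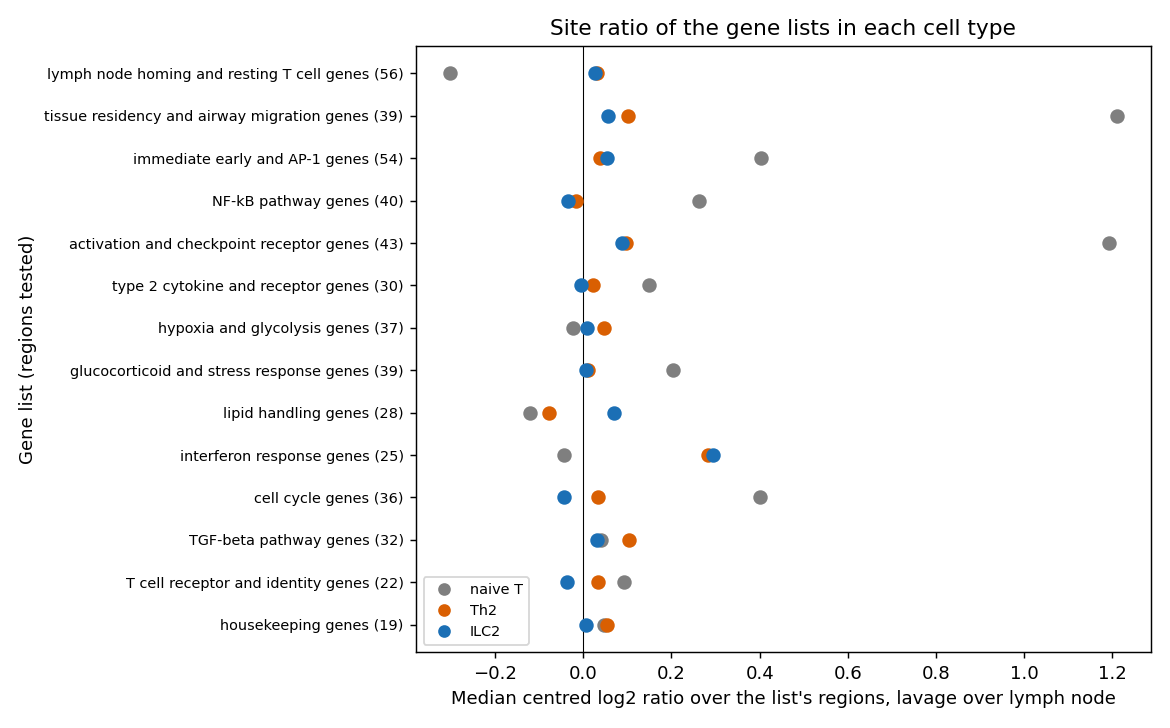
Median centred log2 ratio of lavage over lymph node (x axis) of the regions of each gene list (y axis, number of tested regions in brackets) in naive T cells, Th2 cells and ILC2s, 1 pair of libraries per cell type. The interferon list is the one with Th2 and ILC2 medians of 0.28 and 0.29, while the residency and checkpoint lists are high in naive T cells alone, at 1.21 and 1.19.

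The remaining functional lists had Th2 and ILC2 medians between -0.08 and 0.10, and none of their regions passed adjustment. Type 2 cytokine and receptor genes had medians of 0.15, 0.02 and -0.01 over 30 regions. Within them, the region shared by Il1rl1, the IL-33 receptor gene, and its neighbour Il18r1 held 919.1 and 771.1, 587.2 and 311.7, and 1035.9 and 914.6 tags, higher in the lavage in each type and by most in Th2 cells, at 0.96. Il5, the eosinophil growth factor gene, held 283.0 and 315.9 tags in Th2 cells and 369.6 and 424.9 in ILC2s, lower in the lavage in both. A region near Stat5b, which encodes a cytokine signal transducer, had -0.50, -0.40 and -0.15, while a taller one there had 0.69, 0.02 and -0.07.

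Immediate early and AP-1 genes had medians of 0.40, 0.04 and 0.05 over 54 regions, with 5 higher and 0 lower at an unadjusted limma p under 0.05. Over all regions 2.91% were higher and 1.78% lower at that limit, for comparison with each list here. A region 35208 bp from Egr2, an early gene of receptor signalling, had 1.27, 0.78 and 0.08, while the mean ratios of the other Egr2 regions were 0.016 and -0.003, and a region near Dusp4, a kinase phosphatase gene, had 0.79, 0.34 and 0.28. NF-kB pathway genes had 1 higher and 0 lower of 40, a region in Cflar, which encodes an inhibitor of death receptor signalling, with 1.28, 1.15 and 0.01. TGF-beta pathway genes had 3 higher and 0 lower of 32, among them a region at Skil, a SMAD repressor gene, with 1.57, 0.84 and 0.29, and a region 7739 bp from Tgif1, another SMAD co-repressor gene, with 0.64, 0.58 and 0.40. A taller region near Tgif1 had 0.07, -0.12 and -0.10.

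Metabolic lists were split. Lipid handling genes had 2 higher and 3 lower of 28 at an unadjusted limma p under 0.05. Over all regions 2.91% were higher and 1.78% lower, the background for each list here. Insig1, which holds back the sterol-responsive factor SREBP, held 244.5 and 256.8 tags in naive T cells, 201.3 and 123.0 in Th2 cells, and 279.8 and 169.1 in ILC2s. Its Th2 and ILC2 ratios were close, at 0.76 and 0.78. Abcg1, a cholesterol exporter gene, had 2 such lower regions, the first at -0.98, -0.46 and -0.18. Hypoxia and glycolysis genes had 3 higher and 1 lower of 37, with a region near Slc2a1, the glucose transporter gene, at 0.77, 0.46 and 0.14 and another at -0.17, -0.21 and -0.13. Glucocorticoid and stress response genes had 0 higher and 1 lower of 39, the Sgk1 region. Cell cycle genes had 0 and 0 of 36, T cell receptor and identity genes 1 and 0 of 22, and housekeeping genes 0 and 0 of 19 with a median over types of -0.01.

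Regions that a ratio cannot cover were those called in every library of 1 site and in none of the other. There were 18 such lavage regions (0.0646% of 27854) and 10 lymph node regions (0.0359%), and with 3 libraries against 3 an exact test of a single region could not go below p = 0.1. The tallest on the lavage side, by mean tags over the 3 libraries, lay inside Aftph, a vesicle trafficking gene, with 214.0 tags in naive T cells, 87.9 in Th2 cells and 56.1 in ILC2s. The next lay 8995 bp from Mex3a, an RNA-binding protein gene, with 94.0, 86.0 and 123.1. Acod1, which encodes the itaconate-making enzyme of activated myeloid cells, had 130.4, 66.1 and 41.3 tags in a region inside the gene. That region held the single listed start site among the 18, which belongs to the noncoding gene Gm41235 and not to Acod1. Smaller regions lay near Ifnar2, a subunit of the type I interferon receptor, with 110.8, 39.9 and 40.9, and near Bhlhe40, a transcription factor gene of tissue-resident lymphocytes, with 66.9, 55.5 and 64.5; both were picked out after their values were seen. Most values lay near the calling minimum, so absence from the node lists does not show absence of the mark.

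On the lymph node side, the regions near Ifnab and Dedd2 were level for the highest mean over the 3 libraries. The first lay 1031 bp from Ifnab, of the type I interferon cluster, with 116.6 tags in naive T cells, 74.1 in Th2 cells and 54.8 in ILC2s. Dedd2, a death effector domain gene, had 138.9, 41.3 and 65.3, and Herc1, a ubiquitin ligase gene, had 163.7, 39.6 and 41.2. Both were tall in naive T cells only. A region 27744 bp from Tnfaip3, the NF-kB inhibitor gene A20, chosen after its values were seen, had 81.3, 45.5 and 49.9. Spleen CD4+ cells had a peak in 8 of the 10 lymph node regions and thymus CD4+ cells in 7, against 2 and 1 of the 18 lavage regions. The difference between these shares was not tested.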

How the data were processed

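H3K4me2 chromatin was precipitated and libraries were built by a Nextera method, per the labels' protocols. Bowtie, HOMER and the mm10 genome are named in the submitters' processing notes, with no versions. Peaks were called per library with HOMER findPeaks against an IgG library, per the file headers. That library was spleen IgG for the spleen CD4+ cells and thymus IgG for all others. The settings were size 1000 bp, minimum distance 2500 bp, a false discovery rate of 0.001, at least 4-fold over IgG and about 40 tags per 10000000. The labels name the H3K4me2 antibody for the IgG samples too, so what the IgG excess means is uncertain. The deposited signal is the normalized tag count, which the authors scaled to 10000000 tags. The deposited fold change is a ratio over IgG. It and the deposited region size, the file's other value, were not used to test anything; per the file headers both come from findPeaks. Header totals turn every value back into whole tags within 0.13, which gave 95% counting intervals. These cover counting error only, since PCR copies are not independent.

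Peaks were merged within 500 bp, each library's tags were summed per region, and log2 ratios were centred per type. The test was limma 3.58.1 in R 4.3.3, with trend, site as the tested term and the cell type as a block, since each type gave both sites. The replicate numbers only restate the cell type. Summaries used Python 3.11.15. Genes came from RefSeq for GRCm38.p6 within 100 kb (26622 of 27854 regions), and 406 of 409 list entries matched a gene; nearest means position only. Regions were named as the 12 per direction with the largest smallest-type ratio, the 5 per direction with the smallest p, up to 4 members per list by mean ratio, and the 6 tallest per direction called at 1 site only; list members at an unadjusted p under 0.05 were added after their values were seen. Members and the 22 lists were chosen with earlier results of these data known. Alternatives covered the value, centring, block, merging, threshold, overlap and leaving out each cell type. Alternatives on covered length within 1.5 times and a size limit of 0.5 log2 units were added after seeing the data. Some genes are not reported here.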

Additional observations from a re-analysis of the deposited data

Results flagged for a closer look

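In 3 functional gene lists, 2 cell types had median ratios of opposite sign that lay 0.3 log2 units or more apart. Other functional lists had opposite signs with smaller gaps. Lymph node stroma markers also lay that far apart, at 0.19 in naive T cells and -0.48 in Th2 cells over 2 regions. B cell markers did so too, at -0.41 and 0.09 in 1 region. Each type has 1 pair of libraries, so none of these differences was tested. Interferon response genes differed by 0.339 log2 units between ILC2s and naive T cells, higher in the former, at 0.29 against -0.04. Lymph node homing and resting T cell genes stood 0.334 higher in Th2 cells than in naive T cells, at 0.03 against -0.30. Cell cycle genes stood 0.444 higher in naive T cells than in ILC2s, at 0.40 against -0.04, and the 4 cell cycle regions with the largest mean ratio all lay near Cdk6, a kinase gene of cell cycle entry. Its tallest region held 1118.8 and 84.1 tags in lavage and node naive T cells, 787.9 and 1002.5 in Th2 cells, and 1346.6 and 1390.7 in ILC2s.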

How the results depend on the processing

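limma called 0 regions higher and 0 lower in the main analysis, without each cell type, and with no replicate block (0 and 0); peaks of at least 80 tags gave 1 higher. The 5 regions 1 log2 unit or more higher in the lavage in all types became 0 per kb of covered sequence, 0 with covered lengths within 1.5 times, 3 without centring, 1 with peaks of at least 80 tags and 10 to 46 when a cell type was left out; at 0.5 log2 units there were 40. The 0 lower became 1 without centring, 4 to 25 with a type left out and 17 at 0.5. Regions called only in lavage (18) and only in the node (10) became 63 to 224 and 56 to 254 with a type left out, and the latter 5 with peaks of at least 80 tags. Without centring, list medians were -0.076 (NF-kB), -0.10 (type 2), -0.14 (hypoxia), -0.16 (glucocorticoid), -0.20 (lipid), -0.088 (TGF-beta), -0.20 (T cell receptor), -0.19 (housekeeping), -0.17 (T cell markers), -0.13 (Th2 and ILC2 markers) and 0.18 (macrophage markers). Per kb they were -0.002 (hypoxia), 0.05 (TGF-beta), 0.059 (T cell receptor), 0.075 (T cell markers) and 0.12 (macrophage markers). With peaks of at least 80 tags, hypoxia genes had 0.004 and TGF-beta genes 0.056, the latter 0.021 with covered lengths within 1.5 times. With a type left out, medians ran from -0.02 to 0.11 (type 2), -0.01 to 0.037 (hypoxia), 0.039 to 0.107 (TGF-beta), 0.008 to 0.056 (housekeeping), -0.021 to 0.086 (T cell markers) and 0.26 to 0.40 (macrophage markers). Of 248 alternative values of the 24 leading regions, 244 kept their direction and 4 turned per kb: Ninj2 (-0.053), Slc35g1 (0.079), Brwd3 (0.022) and Dis3l (0.016). These values are means over types of regions picked for having the same sign in every type. Leaving out a type or the block could therefore hardly turn them, and the 244 are no support for the regions. Type by type and per kb, 28 of the 40 regions were higher in all 3 types and 3 of the 17 lower, against 1494 and 1444 of all 11669. The causes of the changes between settings were not tested. Depth left a median counting error per region of 0.09 to 0.15 log2 units, and its effect on the calls was not tested.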

Other observations

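The lists of other cell types had these calls. The neutrophil and eosinophil list had 1 gene or none of 8 called per library, and none of its regions was called in all 6. Natural killer cell markers had 2 to 5 of 6 genes called, with 3 tested regions and median ratios of 0.88, 0.01 and 0.09 in naive T cells, Th2 cells and ILC2s. Airway epithelium markers had 3 or 4 of 8 called, with medians of 0.08, 0.15 and -0.05 over 3 regions. Lymph node stroma markers had 2 or 4 of 7 called, with medians of 0.19, -0.48 and 0.07 over 2 regions.

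Some genes had several regions with the same sign. At 0.3 log2 units or more in every type, Cetn4, Fcgr1, Icos, Lmna, Prex1, Ralgds, Syne3, Tagap and Trim30a each had 2 regions higher in the lavage, and Slc12a3 and St6galnac5 each had 2 lower. These genes were picked out after their values were seen, and regions near the same gene are not independent.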
